A study of Mus musculus with 12 samples.

Results

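Antigen presentation on MHC class II was followed in 10 genes, chosen by name, through the gene counts of whole retinas. They were the class II chains H2-Aa, H2-Ab1 and H2-Eb1, the invariant chain Cd74, the transactivator Ciita, the peptide editors H2-DMa, H2-DMb1 and H2-DMb2, the protease Ctss and the costimulatory ligand Cd86. All 10 were found among the 25655 genes of the deposited tables, and each had at least 1 count in every comparison made. Bulk RNA-seq was done 2 days after optic nerve crush (ONC), an injury that severs the axons of retinal ganglion cells, in C57BL/6J mice labelled 8 to 10 weeks old. The left nerve was crushed in every group, and every injured eye then received a single intravitreal injection of PBS, fluvastatin (a statin, which inhibits cholesterol synthesis), matrix-bound nanovesicles (MBV, vesicles isolated from the extracellular matrix of pig urinary bladder) or MBV with fluvastatin. Male and female mice were used. There were 3 libraries per group, and the combined treatment was not analysed here, so the values below come from 9 libraries of 3 groups. There was no uninjured retina among these groups, and PBS-treated injured retina was the control throughout.

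MHC class II molecules are pairs of an alpha and a beta chain that carry peptides to the cell surface, where CD4 T cells read them. In the endoplasmic reticulum the invariant chain fills their groove, cathepsin S (Ctss) later trims it, and H2-DM exchanges the remaining fragment for other peptides. Ciita switches the genes of the set on together, through factors bound to a shared promoter module of X and Y boxes. In the retina and optic nerve, class II is a feature of few cells, mainly infiltrating or activated myeloid cells. C57BL/6 mice carry a defective H2-Ea gene, so that H2-Eb1 has no alpha chain of its own isotype in them.

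Each library held 21349516 to 30992040 gene counts, and levels are given as CPM, the counts scaled to library size with TMM factors. Marker genes of retinal neurons and glia (8 genes) were abundant in every library, as the tissue label says. They summed to 38558 to 41808 CPM with PBS, 34419 to 36925 CPM after fluvastatin and 26687 to 37777 CPM after MBV. The library numbers in the labels fall into 2 sets, with the PBS libraries in the first and the fluvastatin and MBV libraries in the second. Set and treatment therefore cannot be told apart in a comparison with PBS, while MBV against fluvastatin lies within 1 set. Pigment cell genes moved with that division as a sum: the 6 genes summed to 98.6 to 146 CPM with PBS, 36.0 to 44.8 CPM after fluvastatin and 27.1 to 50.3 CPM after MBV. In both treated groups 5 of the 6 were below all PBS libraries. Rpe65 overlapped PBS and was highest in the third MBV library (10.1 CPM). The sum of the retinal marker genes also moved with that division, being lower in every fluvastatin and MBV library than in any PBS library. In both treated groups 5 of these 8 genes were below all PBS libraries. The third MBV library stood apart for the class II genes, and results that rest on it are given with and without it. In bulk retina, fewer cells of a type and less RNA per cell cannot be told apart.

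The genes H2-Aa, H2-Ab1, H2-Eb1, H2-DMa, H2-DMb1 and H2-DMb2 lie on mouse chromosome 17 (GRCm39), from H2-DMa at chr17:34338515-34358075 to H2-Eb1 at chr17:34524841-34535648. Ciita and Cd86 lie on chromosome 16 and Ctss on chromosome 3. RefSeq promoter windows (GRCm38.p6, 250 bases before to 50 after a transcript start) were looked up for the members other than Cd74, which was left out of this step. They were found for 6, namely H2-Aa, H2-Eb1, H2-DMa, H2-DMb1, H2-DMb2 and Ctss. The stretches of 4 of them are printed because their letters match elements of that shared promoter module. They read 5′ to 3′ on the strand of the gene, and capitals mark an X2-like element (TGACGTCA or GATGATG) followed by a Y box (TGATTGG):
H2-Aa, chr17:34287857-34287917, minus strand: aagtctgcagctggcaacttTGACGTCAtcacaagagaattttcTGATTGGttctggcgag
H2-Eb1, chr17:34305762-34305822, plus strand: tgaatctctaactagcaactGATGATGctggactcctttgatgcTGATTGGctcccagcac
H2-DMb1, chr17:34153083-34153144, plus strand: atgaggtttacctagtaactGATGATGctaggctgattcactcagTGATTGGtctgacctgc
H2-DMb2, chr17:34145112-34145173, plus strand: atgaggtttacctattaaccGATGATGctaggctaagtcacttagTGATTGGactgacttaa

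The elements were 16 bases apart in H2-Aa, 17 in H2-Eb1 and 18 in both H2-DMb genes, and the Y box began at position -50, -61, -63 and -92 from the transcript start in H2-Aa, H2-Eb1, H2-DMb1 and H2-DMb2. The letters were searched on both strands of all 32851 promoter windows, after the members' windows had been read. A Y box was present in 7.82% of windows, TGACGTCA in 1.79% and GATGATG in 3.48%. An X2-like element followed by a Y box 15 to 35 bases on was found in 10 windows (0.0304%), of H2-Aa, H2-Eb1, H2-DMb1 and H2-DMb2 and of 6 other genes (Dusp8, Gla, Hnrnph2, Ift57, Rpl13 and Thada). These letters were not in the windows of H2-DMa or Ctss. Sharing the letters did not go with sharing a level, since H2-DMb2 had 0 to 14 counts per library, H2-Eb1 7 to 295 and Dusp8, a phosphatase gene outside the class II set, 5245 to 7220.

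All 10 genes were weakly expressed in the injured retina. With PBS, levels per kilobase of exon were highest for Ctss, at 2.96 ± 0.275 CPM per kb (SD, n = 3), and Cd74, at 1.88 ± 0.469. H2-Ab1 (0.752 ± 0.276), H2-Eb1 (0.649 ± 0.238) and H2-DMa (0.590 ± 0.0514) followed, then H2-Aa (0.416 ± 0.0977), H2-DMb1 (0.365 ± 0.163) and Ciita (0.356 ± 0.0731), all in CPM per kb. From H2-Ab1 down to Ciita, neighbours in this order differed by less than their spread over libraries, except H2-DMa and H2-Aa, whose ranges of mean ± SD did not meet. The exon lengths are from GENCODE, in which H2-Aa spans chr17:34493404-34506798, against chr17:34501718-34506797 with the counts. H2-Eb1 also spans more in GENCODE, and so, by fewer bases, do Ciita, H2-DMa, Ctss, Cd74, Cd86 and H2-DMb2. The lengths of all these genes may thus be too long for the counts, and their places in the order too low. H2-DMa and H2-Aa, the neighbours whose ranges did not meet, are both among them. Cd86 (0.134 ± 0.0392) and H2-DMb2 (0.0419 ± 0.0391 CPM per kb) were lowest.

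**Figure D1:**
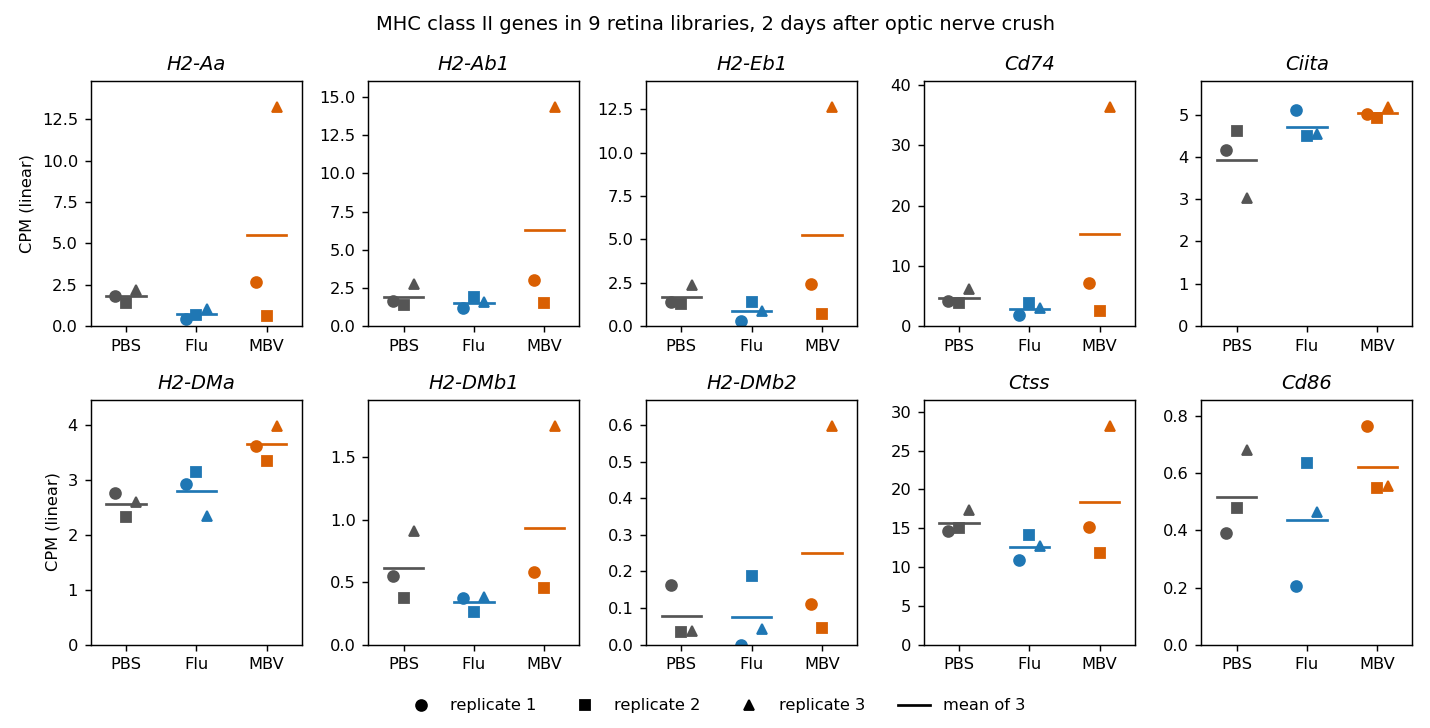
CPM (linear axes from 0) of the 10 class II genes in each library, by treatment (Flu, fluvastatin); symbols mark replicates 1, 2 and 3 and lines the mean of 3. The third MBV library was the highest of 9 for 9 of the 10 genes, the exception being Cd86, while Ciita and H2-DMa showed no such step.

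Of the class II chains, H2-Aa was lower after fluvastatin, and all 3 varied most among the MBV libraries themselves. H2-Aa, the alpha chain of the I-A molecule, had 55, 40 and 58 counts with PBS, 11, 17 and 24 after fluvastatin and 73, 13 and 309 after MBV. Every fluvastatin library was below every PBS library, whereas the MBV libraries lay on both sides of them. The mean level was 1.79 ± 0.420 CPM with PBS, 0.702 ± 0.288 after fluvastatin and 5.49 ± 6.77 after MBV (SD, n = 3 each). H2-Aa fell after fluvastatin by 1.34 on the log2 scale (SE 0.318), a 2.54-fold lower level, with an adjusted p of 0.0152 by the quasi-likelihood test of edgeR (Benjamini-Hochberg adjusted over all genes tested). It was the only one of the 10 members past an adjusted p of 0.05 in that comparison, in which 19.6% of all genes tested passed, so that the members' share of 1 in 10 was below the background. The call was lost without the first PBS library (edgeR adjusted p 0.0573), without the second fluvastatin library (0.0673) and in one edgeR fit of all 9 libraries, whose spread includes that of the MBV group (0.337). With MBV, H2-Aa was 1.61 higher on the log2 scale (SE 0.807, edgeR adjusted p 0.179), and without the third MBV library the difference was -0.09.

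H2-Ab1, the beta chain that pairs with H2-Aa, had 51, 41 and 72 counts with PBS, 28, 50 and 37 after fluvastatin and 83, 33 and 335 after MBV. Its libraries overlapped between all groups. The log2 difference from PBS was -0.32 after fluvastatin (SE 0.289, edgeR adjusted p 0.489) and 1.70 after MBV (SE 0.703, adjusted p 0.109), or 0.26 without the third MBV library. H2-Eb1, the beta chain of the I-E molecule, had 43, 37 and 63 counts with PBS, 7, 37 and 21 after fluvastatin and 67, 15 and 295 after MBV. The second fluvastatin library equalled the lowest PBS library in counts. The log2 difference was -0.95 after fluvastatin (SE 0.439, edgeR adjusted p 0.163) and 1.64 after MBV (SE 0.803, adjusted p 0.172), or -0.06 without the third MBV library. In the GENCODE annotation the span of H2-Eb1 starts at chr17:34504236 and reaches over H2-Aa on the opposite strand. The regions given with the counts, chr17:34501718-34506797 for H2-Aa and chr17:34524841-34535648 for H2-Eb1, do not overlap. Whether strand was used in counting is not given in the sources used here, so reads of overlapping genes may not be fully separate.

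Cd74, the invariant chain, had 130, 114 and 160 counts with PBS, 43, 103 and 70 after fluvastatin and 195, 53 and 849 after MBV. All fluvastatin libraries were below all PBS libraries, and the MBV libraries included both the second lowest and the highest of the 9. Mean levels were 4.73 ± 1.18, 2.86 ± 1.04 and 15.3 ± 18.4 CPM (SD, n = 3 each). The log2 difference from PBS was -0.71 after fluvastatin (SE 0.260, edgeR adjusted p 0.0819) and 1.69 after MBV (SE 0.759, adjusted p 0.138), or 0.04 without the third MBV library.

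Cd74 and the chains kept a nearly constant ratio whatever their level. There were 0.829 to 0.990 Cd74 counts per count on the 3 chains in each of the 9 libraries, although the chain counts ran from 46 in the first fluvastatin library to 939 in the third MBV library. The mean ratio was 0.889 ± 0.0701 with PBS, 0.926 ± 0.0688 after fluvastatin and 0.882 ± 0.0190 after MBV (SD, n = 3 each), differences smaller than the spread between libraries. Summed over the 3 chains and Cd74, the level was 9.07, 7.91 and 13.4 CPM in the PBS libraries, 3.67, 7.74 and 6.45 CPM after fluvastatin and 15.3, 5.21 and 76.5 CPM after MBV. The fluvastatin libraries lay below the PBS libraries, at 5.95 ± 2.08 against 10.1 ± 2.90 CPM (two-sided exact permutation test, p = 0.1, the smallest that 3 against 3 allows). For MBV the exact permutation p was 0.6 against PBS and 0.3 against fluvastatin.

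The make-up of the chain counts differed between libraries as well. H2-Ab1 made up 34.2%, 34.7% and 37.3% of the counts on the 3 chains with PBS, 60.9%, 48.1% and 45.1% after fluvastatin, and 37.2%, 54.1% and 35.7% after MBV. The share was higher in every fluvastatin library than in any PBS library (exact permutation p = 0.1, the smallest possible), while the MBV libraries overlapped both. The 95% Wilson interval of the share was wide where counts were few, from 46.5% to 73.6% in the first fluvastatin library, against 32.7% to 38.8% in the third MBV library. These intervals cover counting error only. The 4 libraries with a share above 45% were also the 4 with the fewest chain counts.

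**Figure D2:**
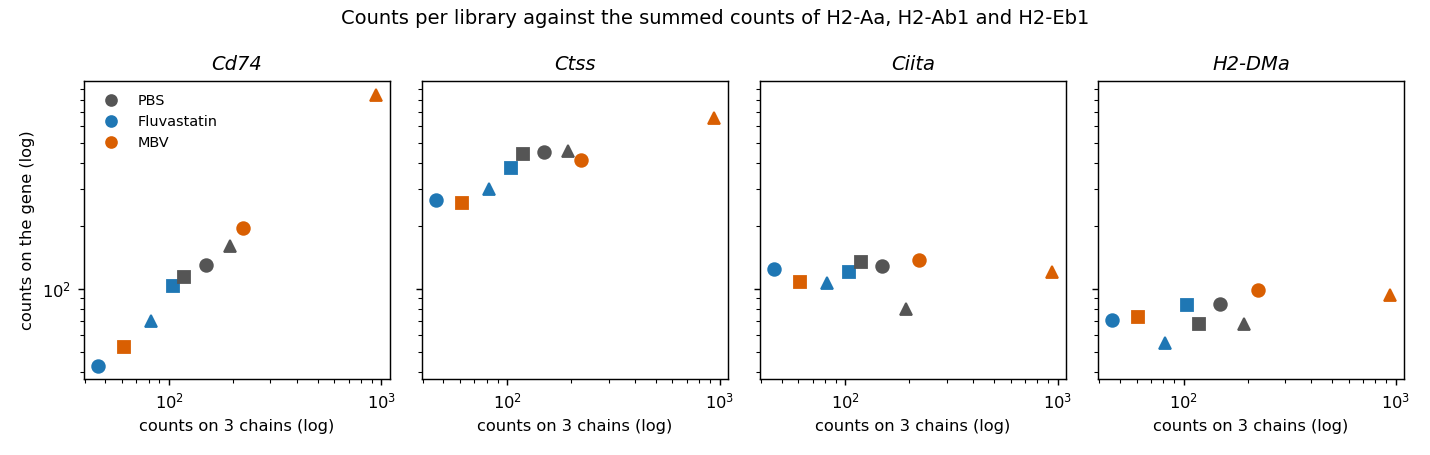
Counts on Cd74, Ctss, Ciita and H2-DMa in each of the 9 libraries (vertical, log axis) against the summed counts on H2-Aa, H2-Ab1 and H2-Eb1 (horizontal, log axis); colours mark the treatment and circles, squares and triangles replicates 1, 2 and 3. Cd74 counts followed the chain counts over the whole range, Ctss less steeply, and Ciita stayed between 80 and 137 counts and H2-DMa between 55 and 99.

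Ciita, the transactivator of the set, did not follow the chains. It had 128, 135 and 80 counts with PBS, 124, 120 and 107 after fluvastatin and 137, 108 and 121 after MBV. The lowest Ciita count was in the third PBS library, which had the most chain counts of its group. Levels were 3.93 ± 0.807, 4.71 ± 0.345 and 5.04 ± 0.125 CPM (SD, n = 3 each), and the MBV libraries were all above the PBS libraries. Neither difference from PBS passed, at 0.25 on the log2 scale after fluvastatin (SE 0.167, edgeR adjusted p 0.332) and 0.34 after MBV (SE 0.166, adjusted p 0.167). Counts on the 3 chains per Ciita count ran from 0.371 in the first fluvastatin library to 7.76 in the third MBV library, and the other 7 libraries had 0.565 to 2.41. Ciita shares part of its span with Dexi on the opposite strand in the GENCODE annotation, so the same limit on strand applies to it.

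H2-DMa, the alpha chain of the peptide editor, was the single member called after MBV. It had 85, 68 and 68 counts with PBS, 71, 84 and 55 after fluvastatin and 99, 73 and 93 after MBV. In CPM the MBV libraries (3.62, 3.33 and 3.98) were all above the PBS libraries (2.76, 2.32 and 2.58) and above the fluvastatin libraries (2.92, 3.14 and 2.33). H2-DMa rose after MBV by 0.50 on the log2 scale (SE 0.156), a 1.42-fold higher level, with an adjusted p of 0.0423 by the quasi-likelihood test of edgeR, Benjamini-Hochberg adjusted. That 1 of 10 members passed stands against 26.1% of all genes tested in MBV against PBS. The size changed little when any 1 library was left out (0.44 to 0.56 on the log2 scale), but the call was lost each time (edgeR adjusted p 0.0557 to 0.127), and with DESeq2 the adjusted p was 0.0768. With fluvastatin the log2 difference was 0.13 (SE 0.175, edgeR adjusted p 0.634). H2-DMa overlaps Brd2 on the opposite strand in the GENCODE annotation.

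H2-DMb1, a beta chain of the editor, had 17, 11 and 24 counts with PBS, 9, 7 and 9 after fluvastatin and 16, 10 and 41 after MBV. Its MBV libraries were all above its fluvastatin libraries in CPM, and both groups overlapped PBS. The log2 difference from PBS was -0.85 after fluvastatin (SE 0.428, edgeR adjusted p 0.203) and 0.60 after MBV (SE 0.539, adjusted p 0.464), or -0.22 without the third MBV library. H2-DMb2 had 5, 1 and 1 counts with PBS, 0, 5 and 1 after fluvastatin and 3, 1 and 14 after MBV, at or below 3 counts, taken as the limit of detection, in 6 of the 9 libraries, so its fold changes rest on few counts. H2-DMb1 and H2-DMb2 share 254 windows of 75 bases, which are 15.8% of the H2-DMb1 and 12.7% of the H2-DMb2 transcript windows, and how the counting treated such reads is not given in the sources used here. H2-DMb1 did not keep a fixed ratio to its partner H2-DMa, with 0.0833 to 0.441 counts per H2-DMa count.

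Ctss, the protease that trims the invariant chain, was the most abundant of the 10 per kilobase with PBS. It had 452, 440 and 457 counts with PBS, 265, 377 and 299 after fluvastatin and 413, 258 and 659 after MBV. The fluvastatin libraries were all below the PBS libraries, at 12.6 ± 1.59 against 15.7 ± 1.46 CPM (SD, n = 3 each). The log2 difference was -0.32 (SE 0.106, edgeR adjusted p 0.0608). With MBV it was 0.22 (SE 0.262, adjusted p 0.575), or -0.22 without the third MBV library. Cd86, a ligand of CD28 on T cells, had 12, 14 and 18 counts with PBS, 5, 17 and 11 after fluvastatin and 21, 12 and 13 after MBV. Its groups overlapped, with log2 differences of -0.22 (SE 0.445, edgeR adjusted p 0.768) and 0.28 (SE 0.349, adjusted p 0.590).

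**Figure D3:**
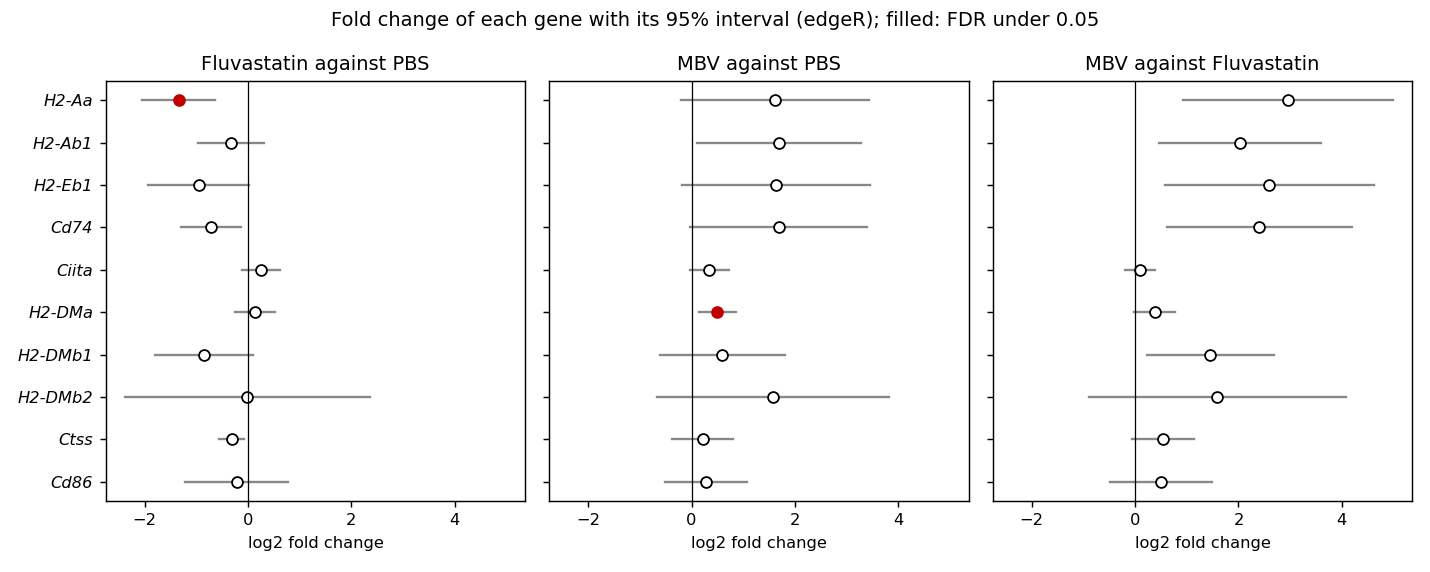
Log2 fold change of each gene (points) with its 95% interval (lines) from edgeR in the 3 comparisons; filled red points have an adjusted p under 0.05. H2-Aa after fluvastatin and H2-DMa after MBV were the only members called, and the intervals of the chains and Cd74 after MBV were several times wider than those of H2-DMa and Ciita.

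As a set, the members were above PBS after MBV in 10 of 10 cases, with a median log2 difference of 1.08 against 0.01 over all genes tested. A stricter count filter, which left out H2-DMb2, gave a median of 0.61. Without the third MBV library the median was 0.02, with 5 members above and 5 below 0. Without the second MBV library, the lowest of its group, H2-Aa, H2-Ab1, H2-Eb1 and Cd74 passed an edgeR adjusted p of 0.05 (0.0232 to 0.0316), with log2 differences of 2.13 to 2.18. Only Ciita and H2-DMa had all MBV libraries above all PBS libraries, 2 of 10 members, where 41.3% of all genes tested did not overlap. An unadjusted p under 0.05 was reached by 2 members (H2-Ab1 and H2-DMa), against 37.8% of all genes. With fluvastatin, 8 of 10 members were below PBS and the median was -0.32 on the log2 scale, against -0.01 over all genes. H2-Aa, Cd74 and Ctss did not overlap PBS, 3 of 10 members against 36.6% of all genes, and the same 3 had an unadjusted p under 0.05, against 32.5% of all genes. All shares were thus near or below the background of their comparison. The comparisons with PBS share the PBS libraries.

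MBV against fluvastatin, within 1 set of libraries, showed the widest gaps and no call. All 10 members were higher after MBV, with a median log2 difference of 1.52 against 0.01 over all genes tested, and 0.58 without the third MBV library. The differences were 2.96 for H2-Aa (95% interval 0.93 to 5.00), 2.60 for H2-Eb1 (0.58 to 4.61), 2.41 for Cd74 (0.61 to 4.20) and 2.03 for H2-Ab1 (0.46 to 3.59). Without the third MBV library they were 1.25, 0.89, 0.75 and 0.58 in that order. None of the 10 passed edgeR's adjusted p of 0.05, the smallest being 0.335 for H2-Aa, in a comparison in which 11 genes (0.0588% of those tested) passed, and none passed with DESeq2. Without adjustment 5 members had p under 0.05 (H2-Aa, H2-Ab1, H2-Eb1, Cd74 and H2-DMb1), against 10.7% of all genes, and 1 did so without the third MBV library. H2-DMa and H2-DMb1 did not overlap between the groups, 2 of 10 members against 16.4% of all genes.

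Of the 10 members, 9 had a mean of at least 10 counts over the 9 libraries, all but H2-DMb2. The third MBV library was the highest for 8 of these 9 and more than 2-fold above the next highest library for 4 (H2-Aa, H2-Ab1, H2-Eb1 and Cd74). Over the 15056 genes with such a mean, it was the highest of 9 for 11.3% and more than 2-fold above the next for 43 (0.286%). Genes with a level most like the mean of the 3 chains and Cd74 were looked for among 15047 genes outside the set, by Pearson r of log2(CPM + 0.5) over the 9 libraries, as a description. They were Cybb (r 0.985), the catalytic subunit of the phagocyte oxidase, Srgn (0.984), a proteoglycan of secretory granules, Mpeg1 (0.976), a pore-forming protein of macrophages, Plac8 (0.971) and Ms4a6b (0.962). Without the third MBV library r was 0.933, 0.946, 0.886, 0.902 and 0.803 in that order. Plac8 and Ms4a6b reached the mean of 10 counts only through the third MBV library, where they had 75 and 68 counts. In the other 8 libraries Plac8 had 1 to 10 counts and Ms4a6b 2 to 16, so their r values rest on few counts. Cybb had 48, 33 and 54 counts with PBS, 21, 29 and 21 after fluvastatin and 76, 20 and 205 after MBV. Because Cybb was picked for its likeness to the chains, its order of high and low libraries is not a separate result. Among the members, r with the mean of the chains and Cd74 was 0.98 for Ctss, 0.92 for H2-DMb1, 0.57 for H2-DMa, 0.43 for Cd86 and 0.05 for Ciita, and without the third MBV library 0.90, 0.68, 0.11, 0.77 and -0.53. The points share their libraries and, for H2-DMb1, Cd86, Plac8 and Ms4a6b, low counts.

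Most genes on the macrophage and monocyte lists were highest in the third MBV library, as were most class II genes. Macrophage genes (8 in the list) summed to 32.7 to 46.5 CPM with PBS, 25.0 to 29.9 CPM after fluvastatin and 25.8 to 100 CPM after MBV, and 5 of the 8 were highest in the third MBV library. The sum in that library was mostly Lyz2 (55.9 CPM) and Csf1r (31.1 CPM). Mrc1, Pf4 and Cd163 were highest in other libraries, at 2.01, 0.487 and 0.124 CPM. Monocyte genes (8) summed to 111 to 146, 131 to 140 and 140 to 189 CPM, with 6 of 8 highest in the third MBV library. That sum was mostly Fn1 and Vcan, matrix genes that other cells also express, and these were highest in the second MBV library (Fn1, 146 CPM) and the first PBS library (Vcan, 73.0 CPM). Fn1 and Vcan were set apart after the values were seen, and they were the genes of this list not highest in the third MBV library. The sum of the other 6 is therefore a description only. These 6 summed to 0.750 to 2.70 CPM with PBS, 0.933 to 1.53 CPM after fluvastatin and 1.19, 3.40 and 18.7 CPM in the MBV libraries 2, 1 and 3. Ccr2, the monocyte chemokine receptor, had 21, 8 and 40 counts with PBS, 12, 32 and 13 after fluvastatin and 65, 13 and 222 after MBV. Ly6c2, a surface marker of inflammatory monocytes, had 67 counts in the third MBV library and at most 2 in any other. Lyz2, lysozyme of macrophages, had 194, 185 and 397 counts with PBS, 82, 133 and 63 after fluvastatin and 166, 70 and 1307 after MBV, and it fell after fluvastatin by 1.31 on the log2 scale (SE 0.345, edgeR adjusted p 0.0240). The part of these cells in the class II values was not tested.

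Microglia genes (8, Tmem119 and P2ry12 among them) summed to 71.0 to 80.9 CPM with PBS, 61.6 to 71.9 after fluvastatin and 67.6 to 74.6 after MBV, and 1 of 8 was highest in the third MBV library. Dendritic cell genes (9) summed to 15.9 to 18.0, 16.0 to 19.2 and 18.2 to 21.7 CPM, with 5 of 9 highest there. That sum was mostly Zbtb46 (12.9 to 16.6 CPM), which was highest in the second MBV library. Xcr1, Batf3 and Ccr7 were also highest elsewhere. Itgax, Cd209a and Clec10a had 38, 10 and 15 counts in the third MBV library and at most 21, 4 and 5 in any other. Neutrophil genes (8) summed to 1.94 to 2.47, 1.44 to 1.91 and 1.69 to 5.90 CPM, with 5 of 8 highest in the third MBV library and the defining marker Ly6g at 0 in all 9 libraries. All 4 general leukocyte genes were highest in the third MBV library, with sums of 15.8 to 24.5, 16.7 to 21.3 and 17.7 to 36.7 CPM. B cell genes (5) stayed at or below 1.57 CPM in sum and T cell genes (6) at or below 2.28 CPM, with Cd3g at 0 in all 9. Their part in the class II values was not tested.

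**Figure D4:**
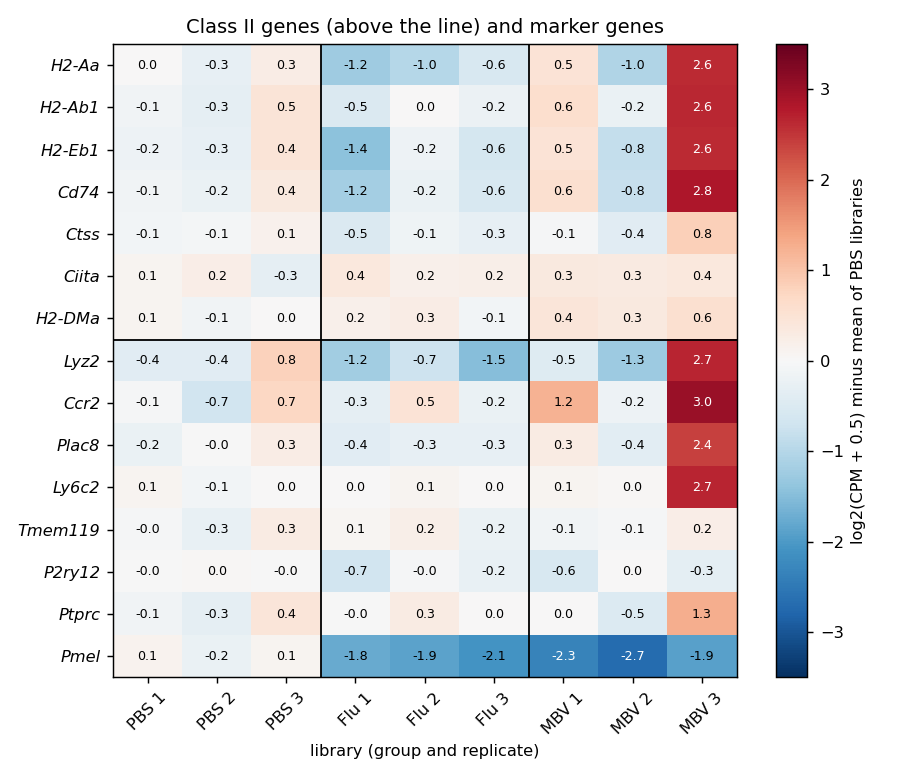
Each cell gives log2(CPM + 0.5) of a gene in 1 library minus the mean of the 3 PBS libraries, for class II genes (above the horizontal line) and marker genes (below it); columns are libraries, red is higher and blue lower. In the third MBV library H2-Aa, H2-Ab1, H2-Eb1 and Cd74 stood high together with Lyz2, Ccr2, Plac8 and Ly6c2. Lyz2, Ccr2, Plac8 and Ly6c2 were picked after their values were seen. Mrc1, Pf4, Cd163, Fn1 and Vcan, from the same marker lists, are not drawn and were highest in other libraries. Of the microglia genes in the third MBV library, Tmem119 (0.22) was within the PBS range and P2ry12 (-0.33) below it. The pigment gene Pmel was low in all 6 fluvastatin and MBV libraries.

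Beyond the 10 members, 34 other genes of the pathway were read, of which 32 could be tested, since H2-Ea and Ifng had 0 counts in all 9 libraries. With MBV, 2 were higher and 7 lower at an edgeR adjusted p under 0.05, and after fluvastatin 1 was higher and 2 lower. These 9 of 32 and 3 of 32 stand against 26.1% and 19.6% of all genes tested. None passed in MBV against fluvastatin by edgeR, where 6 of 32 had an unadjusted p under 0.05, against 10.7% of all genes. The median log2 differences of the list were 0.03, -0.05 and 0.04.

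The pathway genes that passed changed by small amounts. Cst3 (cystatin C), a secreted inhibitor of cysteine proteases such as Ctss, had 305, 306 and 330 CPM with PBS, 258, 241 and 250 after fluvastatin and 223, 218 and 258 after MBV. It fell by 0.33 on the log2 scale after fluvastatin (SE 0.0459, edgeR adjusted p 0.00159) and by 0.44 after MBV (SE 0.0660, adjusted p 0.00203). Lgmn, a lysosomal protease, had 114, 114 and 123 CPM with PBS, 138, 137 and 133 after fluvastatin and 136, 139 and 155 after MBV. It rose by 0.22 (adjusted p 0.00901) and 0.28 (adjusted p 0.00698) on the log2 scale. Sppl2a, which cleaves the membrane stub of the invariant chain, fell by 0.31 (adjusted p 0.00282) and 0.26 (adjusted p 0.0109).

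The other pathway calls were after MBV. Of the NF-Y subunits, which bind the Y box of the class II promoters printed above and of many other genes, Nfyb fell by 0.27 and Nfyc by 0.31 on the log2 scale, and Nfya rose by 0.19 (edgeR adjusted p 0.00567, 0.00240 and 0.0192). Mif, a ligand of the CD74 protein, fell by 0.20 (adjusted p 0.0158). The interferon gamma receptor kinases Jak1 and Jak2 fell by 0.14 and 0.17 (adjusted p 0.0418 and 0.0325). Irf1, an interferon-induced factor that acts on the Ciita gene, did not pass in edgeR, with log2 differences of 0.09 after fluvastatin and -0.03 after MBV (adjusted p 0.872 and 0.945). The costimulatory receptor gene Cd40 had 4, 5 and 5 counts with PBS, 10, 4 and 5 after fluvastatin and 11, 11 and 4 after MBV, with its lowest MBV count in the third library, the one in which the class II chains were highest.

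**Figure D5:**
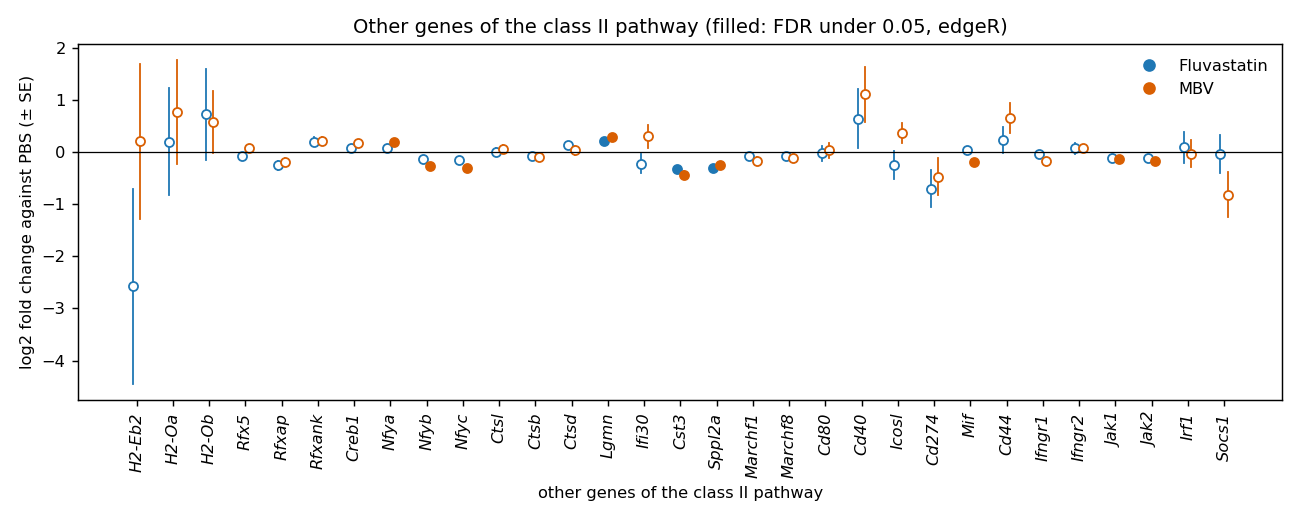
Log2 fold change against PBS (points) with its SE (lines) for 31 of the 32 other pathway genes that could be tested, after fluvastatin in blue and MBV in orange; filled points have an edgeR adjusted p under 0.05. Cst3 and Sppl2a were lower and Lgmn higher with both treatments, and the called changes were between -0.44 and 0.28.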

How the data were processed

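Total RNA of whole retinas was sequenced in triplicate per group on a NextSeq500 from TruSeq Total RNA libraries. Per the labels and the study's methods, the authors aligned paired reads to GRCm39 and counted them per gene with CLC Genomics Workbench (version 22.0.2), and the deposited count columns hold raw counts without normalization. The annotation, strand setting and treatment of multi-mapping reads are not given in the sources used here. The tables also hold the authors' fold changes and p-values, which were not used. In 1 table, 6 count columns carry no library name. They were used in no step, so the combined treatment was not analysed here.

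Groups came from the labels. The labels do not tie each library to an animal, so p-values measure the spread between these samples. Each comparison was fitted on its 6 libraries with edgeR (4.0.16, R 4.3.3): TMM scaling, genes with at least 1 count in 1 library, quasi-likelihood test, Benjamini-Hochberg adjustment over all genes tested, threshold 0.05. The common coefficient of variation was 8.57% (MBV, PBS), 7.78% (fluvastatin, PBS) and 10.1% (MBV, fluvastatin). CPM used TMM library sizes. DESeq2 (1.42.0) and the settings described at the end were alternatives. Single values were compared by exact permutation. Levels per kilobase used the merged exon length of GENCODE annotation, which need not be the annotation used for the counts. All 10 members were named, up to 10 other pathway genes by smallest adjusted p if under 0.05, and the 5 genes most like the chains. Other genes (the markers Ccr2, Lyz2, Ly6c2, Plac8 and others, and Irf1 and Cd40) were named after their values were seen, and some genes are not reported here. The members and lists were chosen with earlier results of these data known.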

Additional observations from a re-analysis of the deposited data

How the results depend on the processing

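The members called in MBV against PBS numbered 1 (H2-DMa) and kept to 1 with DESeq2 size factors, a stricter count filter or one fit of all 9 libraries. With DESeq2 the number was 0, and leaving out 1 library gave 0 to 4, with 4 only without the second MBV library. The members called in fluvastatin against PBS numbered 1 (H2-Aa), 0 in one fit of all 9 libraries, and 0 to 1 when 1 library was left out. MBV against fluvastatin gave 0 calls under every setting run, while calls over all genes there were 11 by edgeR, 126 by DESeq2, and 197 by edgeR without the third MBV library. The cause of these shifts was not tested.

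The replicate numbers were not taken to pair the samples: same-numbered libraries had correlations of deviations from the group means of -0.366 to 0.159 (15056 genes), and in every comparison at least 2 of 3 numbers were not each other's best match. With the number as a replicate block, the members called were 0 in MBV against PBS, 3 in fluvastatin against PBS (H2-Aa, Cd74 and Ctss) and 0 in MBV against fluvastatin, with 3876, 3727 and 0 calls over all genes.

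Directions turned only when 1 library was left out. Against PBS, the log2 difference of MBV then ranged from -0.09 to 2.13 for H2-Aa, -0.06 to 2.15 for H2-Eb1, -0.22 to 0.98 for H2-DMb1, -0.01 to 2.63 for H2-DMb2 and -0.22 to 0.45 for Ctss, with the lowest value in each case that without the third MBV library. That of fluvastatin ranged from -0.51 to 0.01 for H2-Ab1 (highest without the third PBS library), -1.74 to 1.05 for H2-DMb2 and -0.61 to 0.11 for Cd86. Among single members, 142 of the other tests were unchanged in direction and call, 2 gained and 3 lost the call. Mean levels moved by less than 1 SD under other scalings. The stricter filter left out H2-DMb2. Comparisons with the combined treatment, main effects included, were not run. Low counts limit H2-DMb1, H2-DMb2 and Cd86 most.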
